A study of Mus musculus with 6 samples.

Results

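The genes described here are 9 members of the fibroblast growth factor (FGF) family: the homologous factors Fgf11, Fgf12, Fgf13 and Fgf14, the ligands Fgf1 and Fgf2, and the receptors Fgfr1, Fgfr2 and Fgfr3. They were taken by symbol, and all 9 were found among the 24421 genes of the table. The set was selected on the normalized counts themselves, around Fgf11, whose level was higher in every library from mice given clozapine-N-oxide (CNO) than in any saline library. Its CNO and saline values, and those of the other 8 genes in the same contrast, are therefore given as a description and without a test.

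The RNA came from astrocytes sorted out of the cortex of CD51-Flp mice, which carry Flp recombinase under control of the gene for CD51 (integrin alpha V). All animals had received AAV-GFAP-FSF-hM3D-mCherry after birth, a viral vector in which the GFAP promoter drives hM3D, a Gq-coupled receptor made to respond to CNO, and the red marker mCherry, in cells with Flp. The 3 CNO libraries (CNO 1, 2 and 3) came from mice given CNO by 2 injections a day between postnatal days 7 and 21, and the 3 saline libraries (saline 3, 4 and 5) from mice injected with saline on the same schedule, with mCherry+ cells sorted on day 21. Where 3 values of a group follow each other, they are in the order CNO 1, 2, 3 and saline 3, 4, 5. The receptor and the vector were thus shared by both groups, and no group received CNO without the receptor. The labels do not say whether a library is 1 animal or a pool, so a p-value speaks of the spread among these 6 libraries alone. Fewer cells of a type and less RNA per cell cannot be told apart in such bulk samples.

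FGFs are best known as secreted proteins that bind receptor tyrosine kinases together with heparan sulfate and pass the signal through the adaptor FRS2 to the RAS and ERK cascade. In the brain, Fgfr3 is a marker of astrocytes and their precursors, while FGF signals also act on the oligodendrocyte lineage. The homologous factors share the FGF fold but stay inside the cell, where they bind the tails of voltage-gated sodium channels, and they are known mainly from neurons.

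Read depth limited the precision of the low values, but did not alone set how many genes were seen. Genes with a read numbered 8618, 12820 and 10883 in CNO 1, 2 and 3 and 14311, 14491 and 14141 in saline 3, 4 and 5. CNO 2 and CNO 3 thus had fewer such genes than saline 4 with more reads (19224186 and 17102657 against 12010901). The cause was not tested. CNO 1 held 3908076 reads and the other 5 libraries 12010901 to 19224186, so a single read equals 4.23 normalized counts there and 0.503 to 0.970 in the others. Normalized counts are read counts that the authors had divided by a size factor per library. Astrocyte markers were present as labelled, with a read for all 10 listed genes in all 6 libraries and a summed level of 162291 to 543343 in CNO and 175436 to 264536 in saline. The 12 oligodendrocyte markers summed to more, 1841017 to 3487358 in CNO and 525544 to 754645 in saline, without overlap. Most of that sum was Mbp, a myelin gene, at 1585698 to 2963042 in CNO and 451368 to 604104 in saline. In CNO 1 and the saline libraries the sum exceeded that of the astrocyte markers only through Mbp. Itgav encodes CD51 itself, and its mean was 4023 ± 336 with CNO and 4759 ± 741 with saline (SD, n = 3 each). Xist, the RNA of the inactive X chromosome, was at 21466 to 35117 in CNO 2, CNO 3 and saline 4 and at 25.4 to 885 in the other 3 libraries. Ddx3y, a Y-linked gene, was at 6.66 in CNO 2, 1.94 in CNO 3, 213 in saline 4 and 1452 to 2417 in the other 3 libraries.

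The promoters of the 3 genes whose groups did not overlap are shown to let their base composition be compared. Sequences are the 250 bases before a RefSeq transcript start on the coding strand (GRCm38.p6, the assembly of mm10), with CpG dinucleotides in capitals. Windows lie at chr11:69802281-69802530 for Fgf11 (minus strand), chr16:28753244-28753493 for Fgf12 (minus strand, the first of 4 starts) and chr3:37348403-37348652 for Fgf2 (plus strand).
Fgf11: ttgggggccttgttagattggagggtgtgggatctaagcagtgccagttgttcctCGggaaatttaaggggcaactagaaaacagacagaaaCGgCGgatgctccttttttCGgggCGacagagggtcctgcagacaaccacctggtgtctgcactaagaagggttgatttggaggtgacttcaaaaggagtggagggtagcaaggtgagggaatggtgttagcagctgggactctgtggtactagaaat
Fgf12: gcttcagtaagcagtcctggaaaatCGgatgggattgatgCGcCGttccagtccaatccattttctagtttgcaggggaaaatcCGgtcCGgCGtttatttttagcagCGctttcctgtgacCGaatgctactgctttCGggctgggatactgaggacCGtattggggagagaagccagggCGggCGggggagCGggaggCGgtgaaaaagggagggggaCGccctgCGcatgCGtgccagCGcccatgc
Fgf2: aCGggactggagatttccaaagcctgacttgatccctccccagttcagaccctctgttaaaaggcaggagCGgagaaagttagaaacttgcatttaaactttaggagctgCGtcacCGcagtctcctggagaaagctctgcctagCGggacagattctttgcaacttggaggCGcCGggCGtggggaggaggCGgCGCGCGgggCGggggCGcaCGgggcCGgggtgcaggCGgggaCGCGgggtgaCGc

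The Fgf11 window holds 5 CpG dinucleotides, close to the median of 6 over 32851 promoter windows of the same length. The Fgf12 window holds 18 and the Fgf2 window 20, and 78.3% and 82.1% of all windows hold fewer. The whole Fgf11 window and part of the Fgf2 window lie inside the span RefSeq gives the gene. The GC box GGGCGG, searched on both strands and present in 32.7% of all windows, occurs 2 times before Fgf12, 1 time before Fgf2 and 0 times before Fgf11. The Fgf11 window instead holds 3 matches to the E-box CANNTG, which 66.2% of windows have, and the other 2 windows hold 0. The cAMP response element TGACGTCA (in 1.55% of windows) and the AP-1 site TGAGTCA (in 4.46%) are in none of these 3 windows. At later Fgf12 starts, windows 3 and 4 hold 1 E-box each, and window 4 also holds 1 AP-1 site. The NFAT core GGAAAA (in 20.4%) occurs 2 times in the Fgf12 window shown and 0 times in the other 2. The SOX site ACAAAG (in 16.5%) is in none of these 3. RefSeq windows were at hand for 7 of the 9 genes, and a match of letters is a description of the sequence only.

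Fgf11 had the highest ratio of CNO to saline means of the 9 genes. It encodes one of the homologous factors and lies on chromosome 11 at 69796068 to 69802944 (minus strand, GRCm38.p6), a protein-coding gene (ENSMUSG00000042826). Its level was 2071, 3436 and 6261 normalized counts in CNO 1, 2 and 3, and 332, 84.0 and 419 in saline 3, 4 and 5. Every CNO library was thus above every saline library, and the lowest CNO value came from the shallow library, where it rested on 490 reads. The means were 3923 ± 2137 and 278 ± 174, a ratio of 14.1, and the log2 fold change on the log2(normalized count + 1) scale was 3.96 ± 0.79 (SE). Across the 13028 tested genes the median was -0.89, and Fgf11 lay 4.85 above that. With saline 4 left out, the library with the lowest Fgf11, the log2 fold change was 3.25, and without CNO 1 it was 4.35. By ratio of means Fgf11 ranked 348 of the 13028 tested genes, and 47 of the 2546 with a CNO mean of at least 1000, a limit set on the group where Fgf11 was high.

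The genes beside Fgf11 did not share its pattern. Chrnb1, a subunit of the muscle acetylcholine receptor, lies 101 bases away and gave 0, 119 and 0.970 in the CNO libraries versus 103, 267 and 4.53 in the saline libraries. Tmem102, 650 bases away on the other side, had 0 reads in all 6 libraries. No other coding gene of RefSeq overlaps Fgf11.

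Fgf12, the homologous factor best known for its part in neuronal excitability, was the other member with no overlap in that direction. It gave 359, 832 and 699 in the CNO libraries versus 247, 268 and 163 in the saline libraries. The lowest CNO value, again from CNO 1, rested on 85 reads. As a part of all reads of its library, CNO 1 (85 of 3908076) lay below saline 3 (435 of 17389282) and saline 4 (335 of 12010901). The lack of overlap of Fgf12 thus depends on the size factors. The means were 630 ± 244 and 226 ± 55.8, a ratio of 2.79, with a log2 fold change of 1.42 ± 0.87 (SE). Of the 9 members, 2 were thus higher in every CNO library, beside 4.57% of all tested genes, but Fgf11 was chosen for that pattern. Both have a read in every library, and 7.95% of such genes were higher in every CNO library. Fgf2 alone was lower in every CNO library, beside 12.5% of all tested genes. Either pattern was found for 17.1% of all tested genes.

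Fgf13, an X-linked factor also reported to bind microtubules, had its lower values in CNO but with overlap. It gave 169, 20.0 and 1.94 in the CNO libraries versus 341, 112 and 325 in the saline libraries. CNO 3 held 2 reads and CNO 2 held 27, against 140 to 645 in saline. The log2 fold change of -3.41 ± 1.85 (SE) depended on single libraries, at -1.96 without CNO 3 and -4.89 without CNO 1. The 3 libraries with high Xist (CNO 2, CNO 3 and saline 4) were also the 3 lowest in Fgf13. Within these libraries both CNO values lay below the saline value, and within the other 3 the CNO value of 169 lay below 341 and 325. The libraries with high Xist were not alike, as saline 4 held 213 of Ddx3y against 6.66 and 1.94 in CNO 2 and CNO 3. The part of the Xist class in the Fgf13 values was not tested.

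Fgf14, a factor of the axon initial segment, was near the limit of detection. It had 0, 20 and 0 reads in CNO 1, 2 and 3 and 19, 27 and 49 in saline 3, 4 and 5, or 0, 14.8 and 0 against 10.8, 21.6 and 24.7 normalized counts. CNO 2 lay inside the saline range. A floor of 3 reads equals 12.7 normalized counts in CNO 1 and 2.91 in CNO 3, so in CNO 1 a level like that of saline 3 was not detectable at this depth. The log2 fold change of -2.92 turned to 0.15 with quantile scaling.

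**Figure D1:**
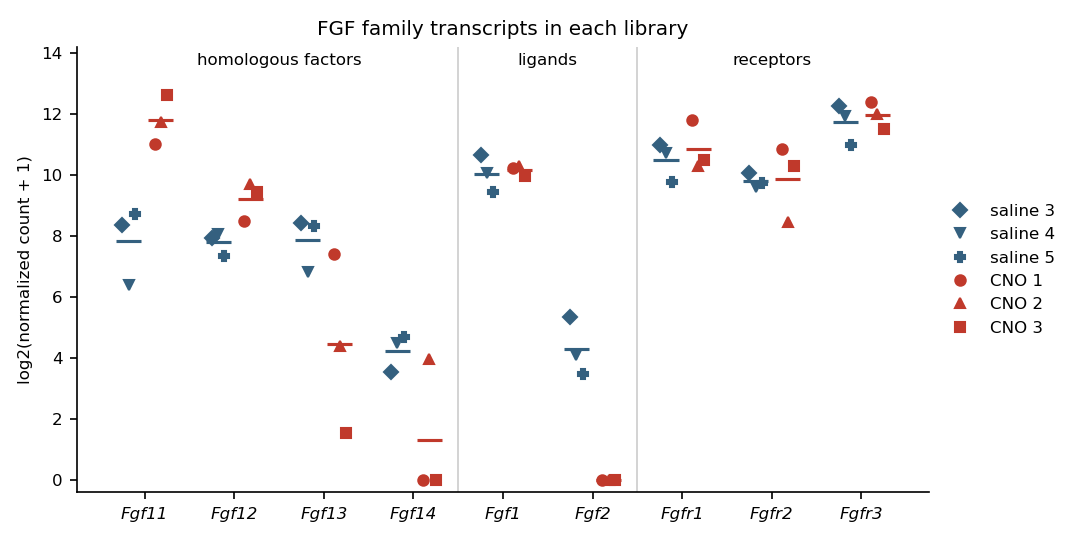
Level of each of the 9 FGF genes in the 6 libraries, as log2(normalized count + 1), with saline libraries in blue, CNO libraries in red, a symbol per library and a bar at each group mean (n = 3). Fgf11 and Fgf12 are higher in all 3 CNO libraries, Fgf2 is at 0 in all of them, and Fgf1 and the 3 receptors overlap between groups.

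The make-up of the homologous factors was compared per kb of merged exons, since levels of different genes compare only per length. In saline, Fgf11 gave 46.2%, 26.6% and 54.9% of their summed level per kb in libraries 3, 4 and 5, Fgf13 gave 35.9%, 26.8% and 32.3%, and Fgf12 gave 16.8%, 41.6% and 10.5%. No single factor was thus first in every saline library. In CNO 1, 2 and 3 Fgf11 gave 87.2%, 88.8% and 94.8%. The Fgf12 share was 5.20% to 10.6% in CNO although its level was higher there, and the Fgf13 share ran from 0.0222% to 5.39%. Shares within a set are tied to one another, so a larger share of one leaves less for the others.

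**Figure D2:**
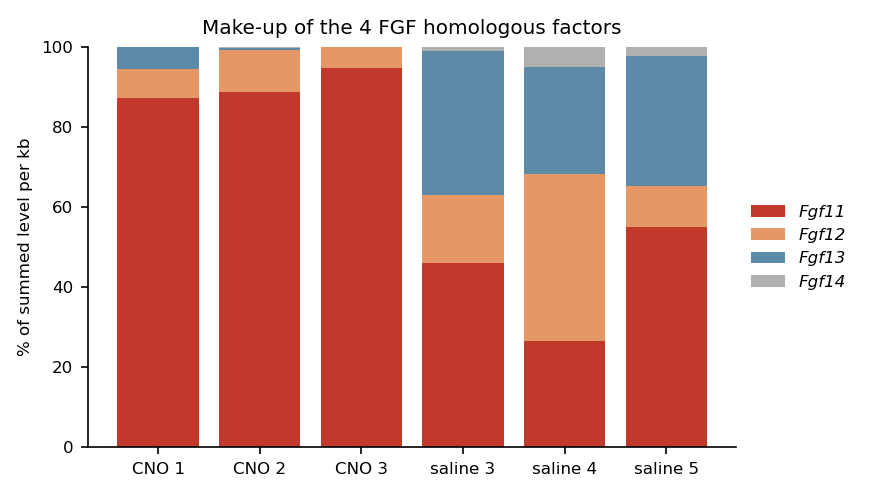
Stacked bars of the share (%) of each homologous factor in their summed level per kb of exon, 1 bar per library. Fgf11 takes 87.2% to 94.8% in the CNO libraries and 26.6% to 54.9% in the saline libraries.

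Markers of other cell types also differed between the groups. Of the 12 oligodendrocyte markers, 7 were higher in every CNO library and 0 lower, beside 4.57% and 12.5% of all tested genes. Mag, Cldn11, Opalin and Aspa had lower means in CNO, with overlap, and Mag and Aspa had 0 reads in CNO 1. The 8 precursor markers summed to 30274 to 34125 in CNO and 6334 to 14072 in saline, also without overlap, but 2 of the 8, Olig1 and Bcas1, were higher in every CNO library, with Cspg4 at 0 in CNO 2 and 3 and Neu4 at 0 in CNO 1 and 3. Bcas1 alone gave 15604 to 28612 in CNO, and without it, a choice made after seeing the data, the sums overlapped, at 8841, 4171 and 14670 against 4279, 2080 and 5547. Set against Mobp, a myelin gene, Fgf11 gave 16.3, 15.4 and 36.0 normalized counts per 1000 of Mobp in CNO 1, 2 and 3 and 11.8, 2.60 and 10.2 in saline 3, 4 and 5. The ratio to Mobp was thus still higher in every CNO library, at 22.6 ± 11.6 against 8.19 ± 4.91 on average, a smaller gap than that of Fgf11 itself. Fgf12 on this scale gave 2.82, 3.74 and 4.02 per 1000 of Mobp in CNO and 8.74, 8.28 and 3.96 in saline, with overlap. Set against Mog, another myelin gene, Fgf11 overlapped between groups. CNO 1 had 2071 of Fgf11 to 1982 of Mog, and saline 3 had the larger ratio, 332 to 241. The 6 markers of border macrophages summed to 47491 to 92633 in CNO and 23536 to 36796 in saline, with 3 of 6 higher in every CNO library, beside the same 4.57%, and none at 0. As a part of all reads, that sum was lower in CNO 1 and CNO 2 than in saline 4. The lack of overlap of the macrophage sum thus depends on the size factors. The part of RNA from oligodendrocyte-lineage cells or macrophages in the Fgf11 and Fgf12 values was not tested.

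The neuron markers, the class in which homologous factors are best known, overlapped between groups. They summed to 3684 to 7235 in CNO and 2064 to 4153 in saline, and 0 of the 10 with a mean of at least 10 were higher or lower in every CNO library. Tubb3, under that mean, was lower in every CNO library, and Tubb3 and Nefm were at 0 reads in CNO 3. In CNO 1, 7 of the 12 were at 0 reads, Tubb3, Stmn2, Slc17a7, Gad1, Gad2, Nefl and Nefm, yet CNO 1 had the highest neuron sum of all 6 libraries, with Celf4 at 4006, Snap25 at 1809 and Rbfox3 at 592. Fgf11 relative to the neuron sum was 286, 759 and 1700 per 1000 in CNO 1, 2 and 3 and 161, 23.4 and 101 in saline 3, 4 and 5, again without overlap. The part of neuronal RNA in the Fgf11 values was not tested.

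The genes whose profile over the 6 libraries lay nearest to that of Fgf11 were found by the root mean square distance between log2 values centred on each gene's mean. Among 6936 genes with a mean of at least 50 and a read in every library, the nearest was Pnmal2, at a distance of 0.50. Hsdl1, Prr5l, Ano4, Zfp874b, Phldb1, Mog and Prr18 followed, at 0.80 to 1.01, where the median over all candidates was 2.42. Mog encodes myelin oligodendrocyte glycoprotein and gave 1982, 1222 and 1785 in the CNO libraries versus 241, 130 and 442 in the saline libraries. All 8 genes were higher in every CNO library, which the choice by likeness to Fgf11 brings with it, and all share their libraries and depths. Mobp ranked 20, Mbp ranked 27, Fgf12 ranked 305 and the astrocyte gene Slc1a2 ranked 1507 in the same order.

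**Figure D3:**
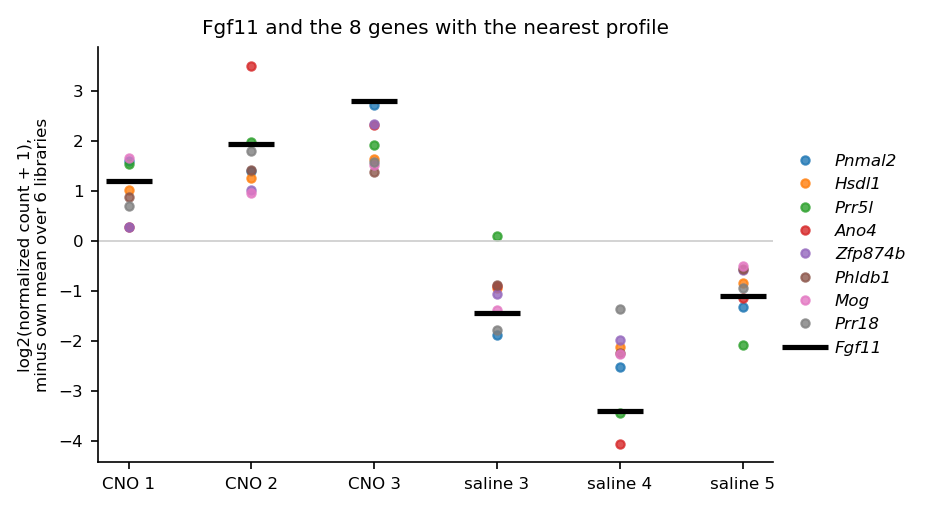
Centred log2(normalized count + 1) of Fgf11 (black bars) and of the 8 genes nearest to it (coloured points) in each of the 6 libraries. Saline 4 is the lowest library for Fgf11, and CNO 3 is the highest.

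The ligands were led by Fgf1, which binds all FGF receptors and lacks a classical signal for secretion. Fgf1 gave 1200, 1250 and 1007 in the CNO libraries versus 1609, 1063 and 691 in the saline libraries. The groups overlapped, all CNO values lay inside the saline range, and the means were 1153 ± 129 and 1121 ± 462. The log2 fold change was 0.12 ± 0.61 (SE) and had a negative sign with quantile scaling, in edgeR and without saline 5. Fgf1 overlaps Arhgap26 on the opposite strand, and since the strand setting is not given in the sources used here, their reads cannot be told apart. Arhgap26 gave 1792, 643 and 222 with CNO and 1472, 494 and 455 with saline, and its saline values fell in the same order as those of Fgf1.

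Fgf2, the basic FGF, had 0 reads in all 3 CNO libraries and 70, 20 and 20 reads in saline 3, 4 and 5. That is 39.7, 16.0 and 10.1 normalized counts in saline, with a mean of 21.9 ± 15.7. Against a floor of 3 reads in each CNO library, which averages 5.94 normalized counts, Fgf2 was at least 3.69-fold lower, a bound for counting error only. Without saline 3 the bound was 2.20-fold and without CNO 1 it was 8.55-fold. In CNO 1 that floor is 12.7, above the value of saline 5. Of the 2788 genes with a saline mean of 10 to 50, 24.4% likewise had 0 reads in every CNO library, as had 3.98% of all tested genes. Nudt6, which overlaps Fgf2 on the other strand, was also lower in every CNO library, at 12.7, 10.4 and 18.4 in the CNO libraries against 28.9, 28.0 and 85.6 in saline 3, 4 and 5.

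Of the 16 other FGF ligands, 12 had 0 reads in all 6 libraries and none reached a mean of 10. Fgf7, Fgf8, Fgf9 and Fgf18 had reads in 1 to 3 libraries, with the highest level of 40.7 for Fgf7 in CNO 2. Fgf1 was thus the one ligand of these 18 with reads in every library.

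The receptors overlapped between groups, and Fgfr3 was the most abundant. Fgfr3 gave 5430, 4140 and 2950 in the CNO libraries versus 4956, 3932 and 2008 in the saline libraries. The means were 4173 ± 1240 and 3632 ± 1497, a difference smaller than either SD. Its log2 fold change of 0.25 ± 0.48 (SE) was negative with quantile scaling and without saline 5.

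Fgfr1, a receptor of many brain cell types, gave 3575, 1250 and 1441 in the CNO libraries versus 2029, 1701 and 881 in the saline libraries. CNO 1 was the highest of all 6, and without it the log2 fold change went from 0.36 ± 0.61 (SE) to -0.11. The 1250 of Fgfr1 and of Fgf1 in CNO 2 is the same count, 1690 reads, in both genes. Fgfr2, a receptor also found in oligodendrocytes, stood at 1838, 352 and 1262 in the CNO libraries, a wider spread than the 1070, 783 and 849 of saline 3, 4 and 5. Its log2 fold change of 0.07 ± 0.74 (SE) was -0.42 without CNO 1 and 0.77 without CNO 2.

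Relative to one another, the receptors kept their order with merged exons as length. Per kb of merged exons, Fgfr3 gave 57.8% to 77.8% of the 3 in CNO and 61.5% to 68.6% in saline, Fgfr1 gave 17.4% to 28.2% and 20.0% to 21.9%, and Fgfr2 gave 4.73% to 18.3% and 9.73% to 18.6%. Fgfr3 was first in all 6 libraries. With the longest transcript as length, Fgfr2 lay above Fgfr1 in saline 5 (192 against 175 per kb). Set against the sum of the 10 astrocyte markers, Fgfr3 gave 9.99, 12.5 and 18.2 per 1000 in CNO 1, 2 and 3 and 18.7, 22.4 and 10.3 in saline 3, 4 and 5, with overlap.

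**Figure D4:**
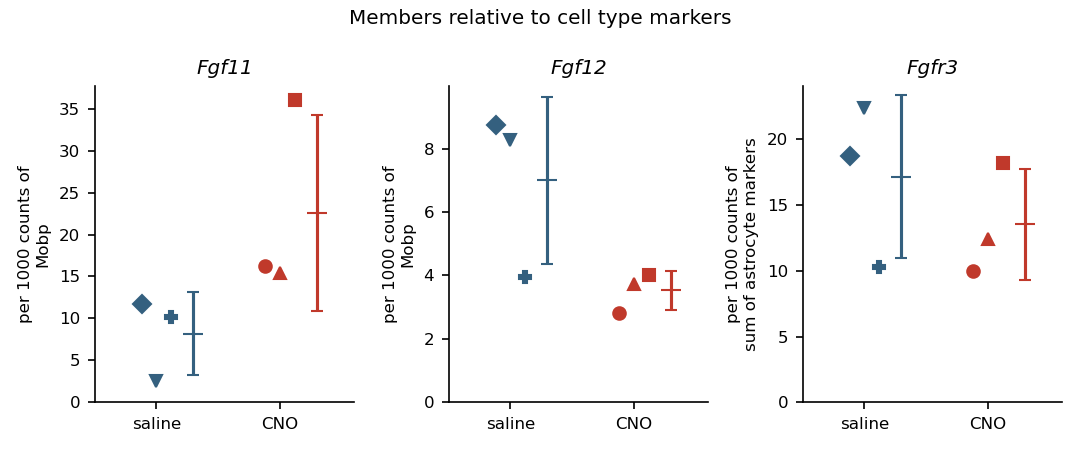
Normalized counts of Fgf11 and Fgf12 per 1000 counts of Mobp, and of Fgfr3 per 1000 counts of the summed astrocyte markers, for each library (symbols as in the plot of all members) with mean and SD beside them (n = 3). Fgf11 relative to Mobp is higher in every CNO library, while Fgf12 and Fgfr3 overlap.

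The order of the levels per kb of merged exons differed between the groups mainly through Fgf11. In saline, Fgfr3 led with 507 ± 209 normalized counts per kb, followed by Fgf1 (205 ± 84.6), Fgfr1 (159 ± 61.2), Fgf11 (91.4 ± 57.1), Fgfr2 (89.9 ± 15.0), Fgf13 (64.5 ± 31.8), Fgf12 (36.4 ± 8.99), Fgf14 (4.55 ± 1.75) and Fgf2 (3.23 ± 2.31). The saline values of each neighbouring pair in that order overlapped, except Fgf12 and Fgf14. In CNO, Fgf11 came first with 1289 ± 702 per kb, before Fgfr3 with 583 ± 173, and these overlapped too, since Fgfr3 was the higher of the pair in CNO 1 (759 against 680). With the longest transcript as length, Fgf11 had rank 6 in saline in place of 4 and still rank 1 in CNO.

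The other genes of the pathway were taken as 7 lists by role, 97 genes in all, of which 73 had a mean of at least 10 and were tested. Limma called 0 of them after adjustment over all genes, beside 0.0154% of all genes, with 2 higher and 3 lower at an unadjusted p under 0.05, where all genes gave 2.28% and 7.25%. EdgeR and limma-voom also called 0, and DESeq2 called 2, Ptpn11 and Hras, both higher, beside 1.86% of all genes. By position of the libraries, 9 of the 73 were higher in every CNO library and 6 lower, beside 4.57% and 12.5% of all tested genes. Of the 45 with a read in every library, 9 were higher and 2 lower, beside 7.95% and 6.73%. Their median log2 fold change was -0.22, against -0.89 for all tested genes, and among those with a read in every library it was 0.33, against -0.09.

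Of the 20 receptor adaptors and members of the ERK cascade, 6 were higher and 1 was lower in every CNO library. The 6 were Frs2, Sos1, Gab1 and Ptpn11, which act between receptor and RAS, Cbl, which ends the signal, and Hras, itself a RAS protein. All 6 were among the 18 genes of the list with a read in every library, and 7.95% of all such genes were higher in every CNO library and 6.73% lower. Ptpn11, the phosphatase SHP2, gave 4598, 4215 and 3680 in the CNO libraries versus 573, 847 and 1108 in the saline libraries. Its log2 fold change was 2.35 ± 0.51 (SE, limma adjusted p = 0.488), and the adjusted p ran from 0.0192 in DESeq2 to 0.648 with quantile scaling. Hras, a RAS protein, stood at 1247, 349 and 232 against 49.9, 20.8 and 44.3, with a log2 fold change of 3.66 ± 1.32 (SE, limma adjusted p = 0.488). Its adjusted p ran from 0.00653 in DESeq2 to 0.761 without saline 4. These genes serve many receptor kinases besides those for FGF.

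Of 12 response and feedback genes of FGF-ERK signalling, 11 were tested, with a median of -0.45 (log2 fold change), and limma called 0. In every CNO library 1 of the 11 was higher and 1 lower, beside 4.57% and 12.5% of all tested genes. Spred1, an inhibitor of RAS signalling, was the higher one, at 5850 ± 1230 against 3926 ± 685 (limma adjusted p = 0.630). As a part of all reads Spred1 was not higher in every CNO library, so its lack of overlap depends on the size factors. Etv4, a transcription factor downstream of FGF, was lower in every CNO library, at 7.40 ± 12.8 against 84.3 ± 58.7 (limma adjusted p = 0.522). Dusp6, Etv1, Etv5 and Spry2 overlapped between groups.

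The partners of the homologous factors, sodium channel subunits and JIP scaffolds, were low. Of 13 listed genes 11 were tested, limma called 0, 1 had a read in every library, and the median log2 fold change was -1.71. Scn8a, a main channel of myelinated axons, gave 0, 91.0 and 181 in the CNO libraries versus 418, 347 and 380 in the saline libraries (limma adjusted p = 0.550). Scn1a averaged 33.7 ± 37.9 with saline and had no read with CNO, which is at least 5.69-fold lower (limma adjusted p = 0.488). Of all genes with a saline mean of 10 to 50, 24.4% likewise had 0 reads in every CNO library. Saline 3 gave 77.1 of Scn1a against 17.6 and 6.54 in the others, and the bound was 2.03-fold without it and 13.2-fold without CNO 1. The 6.54 of saline 5 lies under the floor of 12.7 in CNO 1. These channels were named for their small p, and neither was higher in the libraries where Fgf11 was high. Of the 11 tested partners, 4 had a log2 fold change above 0 and 7 below, beside 4135 and 8893 of all tested genes. Mapk8ip1, the scaffold JIP1, was the partner read in all libraries, at 199, 1296 and 2753 in CNO against 119, 259 and 891 in saline, with overlap.

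Of the 16 carriers and surface binding proteins, 13 were tested, with Sdc3 and Flrt2 higher and Hspg2 lower in every CNO library, beside 4.57% and 12.5% of all tested genes. Hspg2, the basement membrane proteoglycan perlecan, had means of 1.97 ± 3.42 with CNO and 94.3 ± 46.1 with saline (limma adjusted p = 0.488). Of the 16 enzymes, all tested, only Ext2, a polymerase of the chain, did not overlap, at 42.1 ± 44.9 and 284 ± 239 (limma adjusted p = 0.565). Limma called 0 genes in both lists. Fgfrl1, a receptor-like protein without a kinase, gave 8460, 15.5 and 647 in the CNO libraries versus 40.2, 499 and 72.5 in the saline libraries, and its log2 fold change of 1.97 went to -0.15 without CNO 1. Kl, a co-receptor for endocrine FGFs, had at most 56.8 in any library, and Klb had 0 reads.

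**Figure D5:**
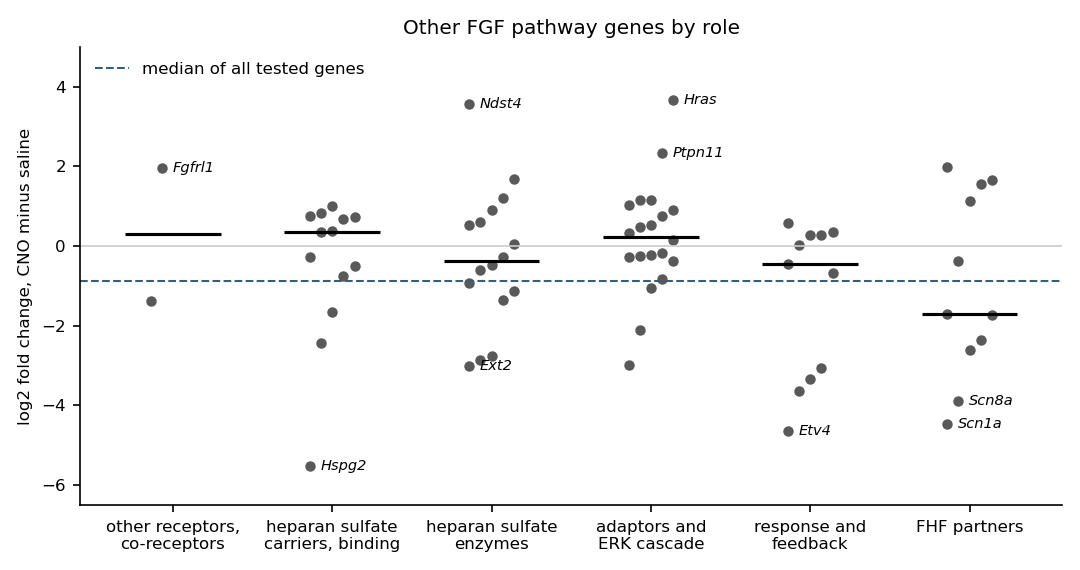
Log2 fold change (CNO minus saline, on log2(normalized count + 1)) of the tested pathway genes by role, 1 point per gene, with a bar at each list median and a dashed line at -0.89, the median of all tested genes. Ptpn11 and Hras are the 2 genes DESeq2 called, and limma called 0 of the pathway genes.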

How the data were processed

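RNA of 6 sorted samples was compared. Per the labels' protocols, libraries were made from 10 ng of total RNA. The authors deposited a normalized signal, in which each library's counts are scaled by its own size factor. The submitters' processing notes list mm10 as build and, as software, DESeq2 1.20.0, STAR 2.5.0a, Trimmomatic 0.4, MultiQC 0.9 and FastQC 0.10.1. Not given in the sources used here are the read counter, annotation and strand setting. Whole reads were recovered for 100% of values within 1e-06 reads, and the table had 0 columns without a sample.

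Limma 3.58.1 (R 4.3.3) was run on log2(normalized count + 1) for 13028 genes (mean of 10 or more), with a variance trend, 2-sided tests and Benjamini-Hochberg adjustment at 0.05. EdgeR 4.0.16, DESeq2 1.42.0 and limma-voom used the recovered reads. The code was tested on simulated data. The members and lists were chosen with earlier results of these data known. Named genes were the 9 members, other FGF ligands and receptors with a mean of at least 10, up to 4 genes per pathway list by smallest p, nearest genes, overlapping genes, Itgav and up to 3 markers per list. Genes outside this rule were named after their values were seen. They were those counted as non-overlapping, ligands under a mean of 10, Klb, overlapping feedback genes, Chrnb1, Tmem102, Xist and Ddx3y. Also among them were markers at 0 reads, oligodendrocyte markers with lower CNO means and the neuron and precursor markers given by value. Positions are those of RefSeq (GRCm38.p6), and exon lengths those of GENCODE vM21. Scn2a was matched through its older symbol Scn2a1. Marker lists of microglia, endothelial, mural and fibroblast cells were summed too, and their CNO and saline sums overlapped. The 10 microglia markers summed to 61287 to 173852 in CNO and 98988 to 130906 in saline. Alternatives were other pseudocounts, filters, scalings and tests, and each library left out. The 3 against 3 design cannot reach an exact permutation p below 0.1, so none is given. The values of 1 gene of the pathway lists are not reported here.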

Additional observations from a re-analysis of the deposited data

How the results depend on the processing

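No paired analysis was made, since the labels do not say that libraries with the same replicate number belong together. Against 2 genes called over all genes by limma, 0 were called with a minimum mean of 50, with quantile scaling, without a variance trend and in edgeR, and leaving out any 1 library gave 0 to 0. Limma-voom called 16, all higher, and DESeq2 called 242, with 66 higher and 176 lower. The number of other FGF pathway genes called was 0 in all settings except DESeq2, with 2. Quantile scaling moved the median log2 fold change of all tested genes from -0.89 to -0.08. Relative to these medians Fgf11 stood at 4.85 and 4.30, and Fgf12 at 2.31 and 1.74. Over 16 alternatives the log2 fold change ran from 3.25 to 4.40 for Fgf11 and from 1.18 to 1.78 for Fgf12. Their groups did not overlap, so leaving out any 1 library could not turn these signs. Other filters and the variance trend do not alter a fold change. For Fgf13 the range was -4.89 to -1.96, with no change of sign. The sign turned in 3 alternatives for Fgf1, 2 for Fgfr1, 5 for Fgfr2, 2 for Fgfr3 and 1 for Fgf14, and the cause was not tested. Fgf14 and Fgf2 gave no value with a minimum mean of 50. For Fgf2 the log2 fold change was -4.30, and over 15 alternatives it ran from -7.84 in edgeR to -0.82 with quantile scaling. Each leave-one-out fit kept the 13028 genes, and an arm of 2 shares the spread of the other. Low counts limit Fgf2 and Fgf14 most. Depth was lowest in CNO 1, but CNO 2 and CNO 3 also had fewer genes with a read than any saline library.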
